A study of Homo sapiens with 9 samples.

Results

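A total of 81 of the 23284 gene symbols in the data were listed at 0 in every control library of HT-29 cells and reached at least 3000 FPKM in every library of cells treated with 5 µM 5-Aza. HT-29 is a line of human colon cancer epithelial cells, and 5-Aza (5-aza-deoxycytidine) is a nucleoside drug that inactivates the enzymes of DNA methylation. Transcripts of 9 separate cultures of this line were sequenced as paired ends, with 3 biological replicates at 0 µM (the vehicle dimethyl sulfoxide alone), 3 at 5 µM and 3 at 10 µM 5-Aza, each treated for 5 days. FPKM is the number of sequenced fragments of a gene, scaled by transcript length and by library size. It served here as a relative value, since the values of a library summed to between 3.69e+09 and 5.91e+09. The 0 µM and 5 µM values chose the 81 genes, so their rise from 0 µM to 5 µM is only described, while the 10 µM values had no part in the choice. Symbols that start with MIR, SNOR, SCARNA, SNAR, LINC, MAGE, GAGE, PAGE, XAGE, SSX, CT45, CTAG, CT47, SPANX, HIST or ZNF were left out by name. Among them, 28 met both limits.

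DNA methyltransferases copy the methyl marks of CpG dinucleotides to the new strand at each cell division. A dense methylated CpG promoter is usually silent, and genes used by germ cells, such as those of the piRNA pathway and of meiosis, are a known class kept off in somatic cells in this way. 5-Aza is built into the DNA, traps the methyltransferase there, and lets methylation fade as cells divide, but it also harms cells at higher doses. DNA methylation was not measured in the data used here.

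The genes did not share a single kind of promoter, and the sequences of 7 of them show the range. Each sequence is the 250 bases before the RefSeq transcription start (promoter table of GRCh38.p14, placed by exact match on GRCh37), written 5′ to 3′ along the gene with every CG dinucleotide in capitals. The first 5 belong to genes with many CG: MAEL (chr1:166944569-166944818, plus strand), DAZL (chr3:16646931-16647180, minus strand), TFDP3 (chrX:132352383-132352632, minus strand), STC2 (chr5:172755418-172755667, minus strand) and MAL (chr2:95691203-95691452, plus strand). The other two belong to genes with few: C6orf15 (chr6:31080353-31080602, minus strand) and LTB (chr6:31550203-31550452, minus strand). Over these 250 bases MAEL had 51 CG, TFDP3 36, DAZL 28, MAL 26, STC2 22, LTB 2 and C6orf15 1.
MAEL: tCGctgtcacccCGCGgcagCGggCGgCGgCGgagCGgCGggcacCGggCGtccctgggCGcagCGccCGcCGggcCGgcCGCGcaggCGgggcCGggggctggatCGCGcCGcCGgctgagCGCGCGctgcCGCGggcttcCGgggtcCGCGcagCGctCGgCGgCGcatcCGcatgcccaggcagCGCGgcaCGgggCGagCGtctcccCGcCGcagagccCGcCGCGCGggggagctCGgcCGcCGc
DAZL: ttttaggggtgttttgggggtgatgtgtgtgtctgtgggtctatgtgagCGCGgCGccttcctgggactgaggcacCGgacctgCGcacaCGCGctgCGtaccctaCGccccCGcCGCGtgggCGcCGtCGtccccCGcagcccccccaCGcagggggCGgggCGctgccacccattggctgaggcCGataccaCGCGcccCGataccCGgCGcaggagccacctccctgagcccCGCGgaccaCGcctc
TFDP3: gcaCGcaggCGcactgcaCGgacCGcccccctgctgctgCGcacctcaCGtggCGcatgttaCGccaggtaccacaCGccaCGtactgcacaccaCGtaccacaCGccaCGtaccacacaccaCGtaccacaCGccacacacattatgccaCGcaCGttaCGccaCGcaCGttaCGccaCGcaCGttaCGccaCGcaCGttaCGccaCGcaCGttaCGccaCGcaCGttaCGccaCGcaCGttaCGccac
STC2: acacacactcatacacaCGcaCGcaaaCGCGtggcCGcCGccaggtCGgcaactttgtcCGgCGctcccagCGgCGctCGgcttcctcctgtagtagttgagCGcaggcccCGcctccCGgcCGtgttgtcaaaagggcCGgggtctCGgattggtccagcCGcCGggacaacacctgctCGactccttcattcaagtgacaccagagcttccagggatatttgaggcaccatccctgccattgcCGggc
MAL: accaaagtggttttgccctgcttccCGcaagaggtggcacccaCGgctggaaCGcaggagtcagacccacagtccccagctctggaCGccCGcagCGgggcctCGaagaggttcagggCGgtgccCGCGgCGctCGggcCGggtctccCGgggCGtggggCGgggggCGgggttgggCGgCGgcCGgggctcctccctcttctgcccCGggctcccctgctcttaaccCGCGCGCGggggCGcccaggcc
C6orf15: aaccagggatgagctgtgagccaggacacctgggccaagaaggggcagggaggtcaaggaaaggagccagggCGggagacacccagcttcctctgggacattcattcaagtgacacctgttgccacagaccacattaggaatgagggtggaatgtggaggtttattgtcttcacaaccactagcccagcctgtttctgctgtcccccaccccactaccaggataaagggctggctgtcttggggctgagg
LTB: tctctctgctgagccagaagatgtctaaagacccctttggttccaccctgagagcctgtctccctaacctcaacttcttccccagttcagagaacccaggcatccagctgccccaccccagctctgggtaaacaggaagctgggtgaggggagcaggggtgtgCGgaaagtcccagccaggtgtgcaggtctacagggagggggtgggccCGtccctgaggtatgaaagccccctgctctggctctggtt

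All 14 markers of colon epithelium were above 0 in each of the 9 libraries, while their summed level was 9.06e+07 to 1.09e+08 FPKM in the control, 3.82e+07 to 4.30e+07 at 5 µM and 3.00e+07 to 5.26e+07 at 10 µM. The sum of 8 fibroblast markers was 23405 to 32633 FPKM in the control, 86723 to 94425 at 5 µM and 46289 to 53827 at 10 µM. Of these 8, 2 were above 0 in every control library, 7 in every 5 µM library and 5 in every 10 µM library. DCN was at 0 in every 5 µM library and COL1A2 in every 10 µM library. The sum of 6 endothelial markers was 5870 to 7547, 19967 to 28593 and 7712 to 8903 FPKM. Of these 6, 3 were above 0 in every control library, 4 in every 5 µM library and 4 in every 10 µM library. CDH5 and KDR were at 0 in every control library, and KDR also in every 10 µM library. The part of these markers in the values below was not tested. The depth estimated from the FPKM values ranged from 2.42e+07 to 4.54e+07 fragments in the control, from 4.25e+07 to 4.90e+07 at 5 µM and from 1.78e+07 to 3.96e+07 at 10 µM. The smallest estimate was that of 10 µM replicate 1. In bulk RNA, fewer cells that make a transcript and less transcript per cell cannot be told apart, and this holds for every level given.

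At 5 µM the 81 genes together held 1279853 ± 41961 FPKM (SD, n = 3). Their means ran from 3839 FPKM for SBK2 to 172657 FPKM for MAEL, with a median of 9911 FPKM. The 5 highest (MAEL, MT1G, BEX2, TFDP3 and LOC100128098) made up 31.9% of the sum. Against the 19920 symbols above 0 at 5 µM, the means of the 81 genes stood between the 26.3 and 74.8 percentiles, with a median percentile of 33.7. The 3 libraries at 5 µM agreed to a median coefficient of variation of 18.1%, from 3.06% for FOXS1 to 70.1% for PYDC1. Over all symbols, limma called 14.1% higher at 5 µM than at 0 µM, and nothing is read from that contrast for genes chosen on it.

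**Figure D1:**
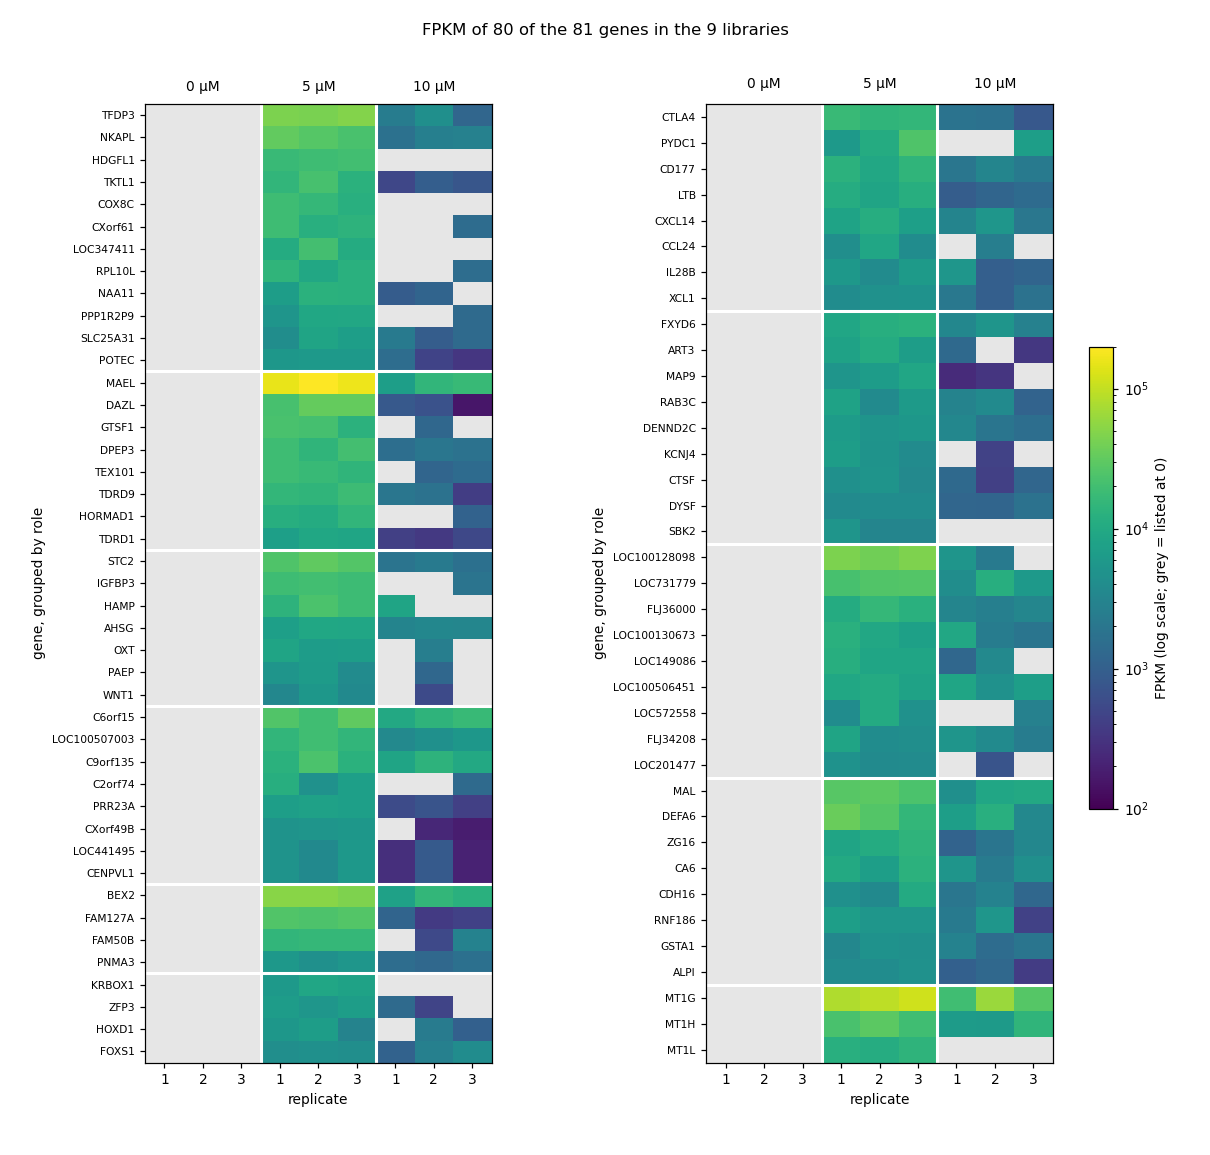
Heat map of FPKM (colour, log scale, grey where a gene is listed at 0) for 80 of the 81 genes (rows, grouped by role between the white lines) in the 3 libraries at 0 µM, 5 µM and 10 µM (columns, replicates 1 to 3). Every gene is grey at 0 µM by the rule, coloured in all 5 µM libraries and lower in the mean at 10 µM, with overlapping groups in 8 of the 81 genes. At 10 µM, 25, 16 and 19 genes are listed at 0 in replicates 1, 2 and 3.

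At 10 µM all 81 genes had a lower mean than at 5 µM. This also held for 72.9% of 13492 symbols with the same 5 µM minimum and values above 0 in every control library. Among the 1483 of these that limma called higher at 5 µM than at 0 µM, it held for 94.7%. The sum of the 81 genes was 191364, 270864 and 215523 FPKM in the 3 libraries at 10 µM, against 1236570, 1320350 and 1282640 FPKM at 5 µM. The groups did not overlap, and the sum at 10 µM was 17.7% of that at 5 µM. For a single gene the median share of the 5 µM level left at 10 µM was 11.5%, with quartiles of 5.70% and 30.2% and a range from 0% to 74.3%. Scaling the libraries by the median of ratios moved the log2 difference from 5 µM to 10 µM up by 0.20 for genes without a 0, and the median share to 12.9%. Less than 10% was left for 39 genes, and 50% or more for 5 genes.

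Of the 81 genes, 34 fell from 5 µM to 10 µM by limma (adjusted p of at most 0.05 over all 20085 symbols tested and a log2 difference below -1), and none rose. Over all symbols tested, 4.82% were called lower and 0.129% higher. In 73 of the 81 genes every 10 µM library lay below every 5 µM library, which was so for 25.3% of all symbols tested. Among the 1483 symbols above that were on in every control library and called higher at 5 µM, it was so for 72.9%. The 5 µM libraries of this contrast also served to choose the genes, with a lower limit at 5 µM and no upper one. The call followed the pattern of 0s in the 10 µM libraries. All 6 genes listed at 0 in every 10 µM library were called lower (7.89% of all symbols tested were listed at 0 there), as were 28 of the 49 genes above 0 in all 3. None of the 26 genes listed at 0 in some but not all of the 10 µM libraries was called. With a pseudocount of 1000 in place of 1, 60 genes were called lower, against 5.18% of all symbols, and with the replicate number as a block 21 were. The call of 14 genes held whichever library was left out: MAEL, TDRD1, DPEP3, NKAPL, TKTL1, HDGFL1, COX8C, LOC347411, STC2, FAM127A, PRR23A, KRBOX1, MT1L and SBK2. HDGFL1, COX8C, LOC347411, KRBOX1, MT1L and SBK2 are the 6 listed at 0 in every 10 µM library. Their spread comes from the 5 µM group alone, so leaving out a library says little about them, and MT1L rests on at least 25 fragments at 5 µM. The other 20 of the 34 calls were each lost without 5 µM replicate 3, while 15 were lost without 5 µM replicate 1 and 13 without 5 µM replicate 2. Without 10 µM replicate 2 the count rose to 50, while that over all symbols rose from 969 to 1873.

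The 13492 symbols that met the same 5 µM minimum and were above 0 in every control library kept a median of 86.7% of their 5 µM level at 10 µM, and 3.25% of them were called lower. Among the 1483 of these that limma called higher at 5 µM than at 0 µM, the median was 57.5%, and 21.0% were called lower. The 81 genes stood at 11.5% and 41.98% on these measures. Of the 13492 symbols, 8629 had 5 µM means within the range of the 81 genes. They kept a median of 86.1%, and 4.23% were called lower. All these lists differ from the 81 genes in level and depth, and the difference was not tested.

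**Figure D2:**
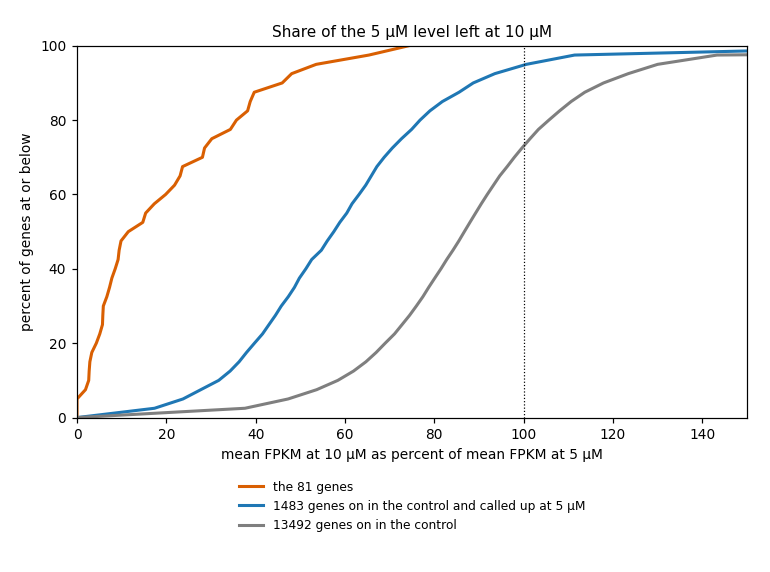
Cumulative share of genes (vertical axis, percent) by the mean FPKM at 10 µM as a percent of the mean at 5 µM (horizontal axis), for the 81 genes, for 1483 genes on in the control and called higher at 5 µM, and for 13492 genes on in the control. The medians lie at 11.5%, 57.5% and 86.7%, and the dotted line marks no difference between the doses.

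Against the control, 49 of the 75 genes that could be tested at 10 µM were called higher than at 0 µM, while 4.07% of all 18928 symbols tested were called higher and 3.4% lower. Scaling by median of ratios turned the 771 higher and 644 lower symbols behind these shares into 1125 and 284, and left the 49 at 49. These 49 are exactly the genes above 0 in all 3 libraries at 10 µM. Both contrasts share the 10 µM libraries, and the control values are 0 by the rule. The call against the control thus restates their presence at 10 µM, and nothing further is read from it. Of these 49 genes, 28 were called lower at 10 µM than at 5 µM.

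The 8 germ cell and piRNA pathway genes had a median level of 17449 FPKM at 5 µM, and 5 of them fell at 10 µM. MAEL, a factor that takes part in transposon silencing by piRNAs, was measured at 156341, 197270 and 164360 FPKM at 5 µM and at 7114, 15007 and 16827 FPKM at 10 µM. The groups lie far apart and MAEL fell by 3.82 ± 0.33 (SE) on the log2 scale (limma adjusted p = 0.00345). It is on chromosome 1 of GRCh37 (166944819 to 166991451, plus strand), and its promoter window, printed above, held more CG than that of any other of the 81 genes with a window. DAZL, an RNA-binding regulator of translation in germ cells, was at 21911, 33529 and 32708 FPKM at 5 µM and at 846, 669 and 158 FPKM at 10 µM. Only 1.90% of its level was left, and it fell by 6.01 ± 0.66 on the log2 scale (limma adjusted p = 0.00522). The Tudor domain proteins TDRD1 and TDRD9, which bind the PIWI proteins that carry piRNAs, fell as well. TDRD1 was at 7375, 9158 and 8824 FPKM and then at 419, 353 and 521 FPKM, and it fell by 4.30 ± 0.41 on the log2 scale (limma adjusted p = 0.00381). TDRD9 kept 8.55% and DPEP3, a membrane dipeptidase of testis, 9.85%, and both were called lower.

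GTSF1, another piRNA pathway factor, was at 22242, 21177 and 13366 FPKM at 5 µM and at 0, 1269 and 0 FPKM at 10 µM. HORMAD1, which binds meiotic chromosome axes, was at 11620, 10825 and 14958 FPKM and then at 0, 0 and 1077 FPKM. TEX101, a germ cell surface glycoprotein needed for sperm function, was at 19025, 16860 and 14664 FPKM and then at 0, 1199 and 1416 FPKM. Every 10 µM library lay below every 5 µM library in these 3 genes, but none passed the test, with limma adjusted p of 0.0626, 0.0684 and 0.159. Of 8 markers of male germ cells, which include DAZL, 1 was above 0 in every control library, 5 in every 5 µM library and 2 in every 10 µM library. Their summed level was 5919 to 8326 FPKM in the control, 83014 to 117790 at 5 µM and 5509 to 12816 at 10 µM. SYCP1 and TNP1 were listed at 0 in all 5 µM libraries, and SYCP1, PRM1, PRM2 and TNP1 in all 10 µM libraries.

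Another 12 genes are used mainly in testis or belong to the cancer-testis class, and 8 of them fell. TFDP3, a DP protein that pairs with E2F factors, was at 44514, 43434 and 49084 FPKM at 5 µM and at 2454, 4400 and 1222 FPKM at 10 µM. It fell by 4.27 ± 0.45 on the log2 scale (limma adjusted p = 0.00485). NKAPL, an intronless relative of the Notch corepressor NKAP, was at 32456, 26903 and 22858 FPKM and then at 1683, 2663 and 2828 FPKM, 8.73% of its 5 µM level. TKTL1, a transketolase-like protein, kept 4.46%, and the POTE family member POTEC 13.1%. The mitochondrial ADP/ATP carrier SLC25A31, the testis form, kept the most of this group, 23.5%, and its call was narrow (limma adjusted p = 0.0496).

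HDGFL1, COX8C and LOC347411 were listed at 0 in every 10 µM library. HDGFL1, a relative of the growth factor HDGF, was at 17330, 19014 and 19991 FPKM at 5 µM, which corresponds to 47, 49 and 58 fragments. Counting 3 fragments over the 10 µM group as the most that a 0 allows, it was at least 35.2-fold lower at 10 µM. COX8C, the testis form of a cytochrome c oxidase subunit, and LOC347411 (now MPC1L), a relative of the mitochondrial pyruvate carrier, were each at least 10.7-fold lower. COX8C lies within UNC79 on the same strand, and UNC79 averaged 226, 372 and 200 FPKM at 0, 5 and 10 µM.

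CXorf61 (now CT83), a cancer-testis antigen, was at 18741, 12052 and 13626 FPKM at 5 µM and at 0, 0 and 1472 FPKM at 10 µM. RPL10L, an autosomal copy of the X-linked ribosomal gene RPL10, kept 4.14% of its level. PPP1R2P9 (now PPP1R2C), of the protein phosphatase inhibitor family, kept 5.70%. NAA11, a testis relative of the acetyltransferase NAA10, kept 6.50%. These 4 were listed at 0 in 1 or 2 libraries at 10 µM and were not called. NAA11 overlaps LOC100505875 on the opposite strand, which averaged 298, 3767 and 187 FPKM at 0, 5 and 10 µM, so reads of the pair may be mixed.

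Of 7 hormones, growth factors and carrier proteins, 2 were called lower. STC2, the glycoprotein hormone stanniocalcin, was at 25018, 30879 and 26042 FPKM at 5 µM and at 1871, 2220 and 1659 FPKM at 10 µM. It fell by 3.84 ± 0.27 on the log2 scale (limma adjusted p = 0.00197), and its values rest on at least 1331 fragments at 5 µM and 65 at 10 µM. IGFBP3, which binds insulin-like growth factors in blood, was at 19149, 20290 and 18146 FPKM and then at 0, 0 and 1867 FPKM. Its 10 fragments at 10 µM all came from replicate 3, and it was not called (limma adjusted p = 0.0746). The liver carrier protein AHSG kept 38.2%, at 7226, 9321 and 8934 FPKM and then at 3088, 3350 and 3295 FPKM, and was called lower (adjusted p = 0.0352 by limma). The iron hormone hepcidin (HAMP), the peptide hormone OXT, the endometrial protein PAEP and the ligand WNT1 were each above 0 in a single 10 µM library, kept 15.4%, 11.5%, 8.11% and 4.32%, and were not called.

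The immune group held 8 genes, of which 3 were called lower. CTLA4, the inhibitory receptor of T cells, was at 17450, 14389 and 15471 FPKM at 5 µM and at 1816, 1724 and 814 FPKM at 10 µM. It fell by 3.52 ± 0.40 on the log2 scale (limma adjusted p = 0.0058). LTB, a membrane ligand of the tumor necrosis factor family, kept 11.2%, and the neutrophil surface protein CD177 kept 19.8%. The chemokines CXCL14 and XCL1 kept 38.8% and 35.7% and were not called, and neither was CCL24, which rests on 2, 4 and 2 fragments at 5 µM. IL28B (now IFNL3), an interferon lambda, was at 5817, 3935 and 6214 FPKM and then at 5505, 995 and 1175 FPKM, so that its groups overlapped through 10 µM replicate 1. PYDC1, an inhibitor of inflammasome assembly, varied most at 5 µM, with 6048, 10608 and 24499 FPKM. It overlaps TRIM72 on the opposite strand, which averaged 997, 32658 and 10992 FPKM at 0, 5 and 10 µM. The kit is not stated to mark the strand, so reads of the pair cannot be told apart. Of 8 markers of leukocytes, 4 were above 0 in every control library, 7 in every 5 µM library and 5 in every 10 µM library. CD3E was listed at 0 in all control libraries and MS4A1 in all libraries of both doses. Their summed level was 8.69e+06 to 8.94e+06 FPKM in the control, 4.58e+06 to 5.44e+06 at 5 µM and 4.74e+06 to 6.88e+06 at 10 µM. Their part in these values was not tested.

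All 9 genes of differentiated epithelia stayed above 0 in every 10 µM library, and 3 were called lower than at 5 µM. MAL, a membrane protein of apical transport, was at 27837, 29558 and 23559 FPKM at 5 µM and at 4375, 8976 and 9771 FPKM at 10 µM, and fell by 1.89 ± 0.34 on the log2 scale (limma adjusted p = 0.0225). DEFA6, an antimicrobial peptide of Paneth cells, was at 34884, 26222 and 15140 FPKM and then at 7074, 11938 and 3522 FPKM, and was not called (limma adjusted p = 0.0831). Every 10 µM library lay below every 5 µM library in both. ZG16, a lectin of goblet cell secretions, kept 19.2% and was called lower. The intestinal alkaline phosphatase ALPI kept 21.5%, the kidney cadherin CDH16 33.3%, the secreted carbonic anhydrase CA6 39.7%, the colonic ubiquitin ligase RNF186 46.0% and the glutathione transferase GSTA1 49.2%, and these were not called. The groups overlapped in RNF186. GSTA1 has close copies that could share reads with it.

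Of the 3 metallothioneins, small proteins that bind zinc and copper, MT1G had the second highest level of the 81 genes. It was at 81634, 95046 and 115274 FPKM at 5 µM and at 19725, 64490 and 27009 FPKM at 10 µM. MT1H was at 22457, 29087 and 19377 FPKM and then at 6539, 6207 and 14652 FPKM. They kept 38.1% and 38.6% and were not called, although the groups did not overlap in either. MT1L, a transcribed pseudogene in the RefSeq annotation, was at 11938, 10993 and 13949 FPKM and then at 0 in every library, and was at least 5.71-fold lower. These genes lie within 52.3 kb of each other on chromosome 16 and are close in sequence, so the division of reads among them is uncertain.

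**Figure D3:**
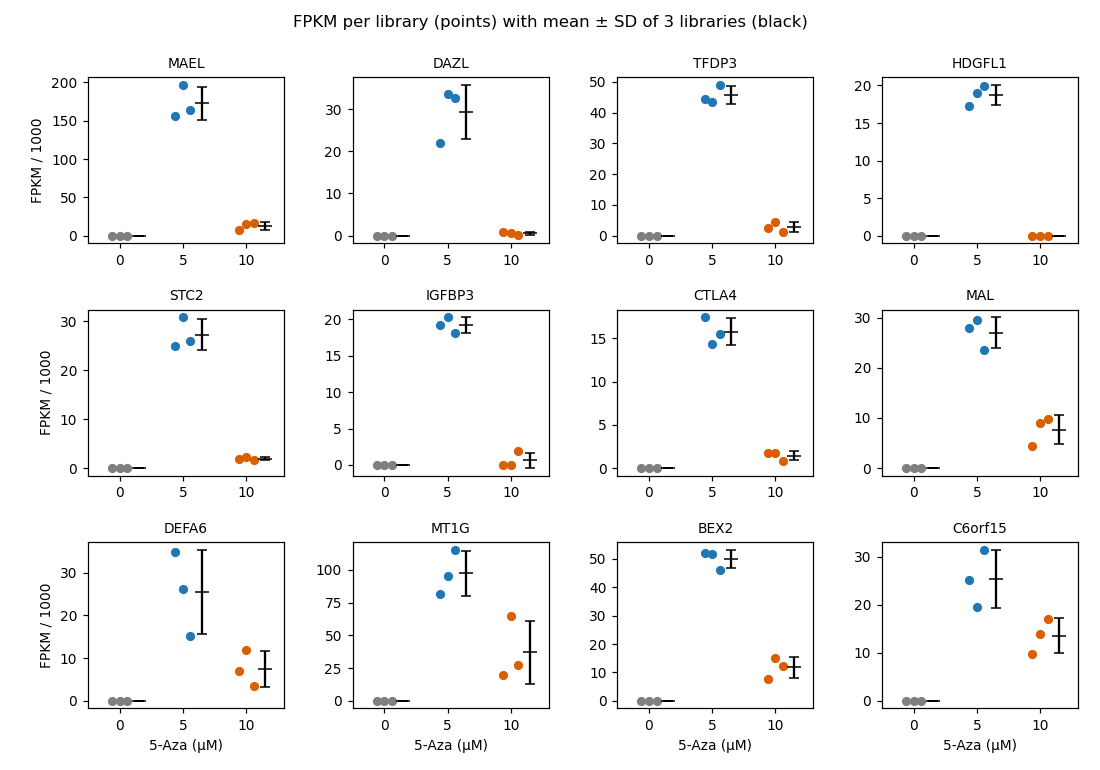
FPKM divided by 1000 (vertical axis, linear) by 5-Aza concentration (horizontal axis, µM) for 12 of the 81 genes, with a point per library and the mean ± SD of 3 libraries in black. MAEL, DAZL, TFDP3, HDGFL1, STC2, IGFBP3 and CTLA4 keep under 10% of their 5 µM mean at 10 µM, while BEX2, MAL, DEFA6, MT1G and C6orf15 keep between 23.6% and 53.6%.

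BEX2, an X-linked gene of the brain-expressed family, was at 52027, 51558 and 46142 FPKM at 5 µM and at 7823, 15154 and 12416 FPKM at 10 µM, and it fell by 2.13 ± 0.27 on the log2 scale (limma adjusted p = 0.00749). FAM127A (now RTL8C) and PNMA3, both descended from the gag gene of retrotransposons, were also called lower. FAM127A was at 25550, 23648 and 25897 FPKM and then at 1165, 369 and 435 FPKM, only 2.62% of its level, while PNMA3 kept 28.4%. FAM127A has near-identical neighbours on the X chromosome that could share its reads. FAM50B, an imprinted intronless gene, was at 14892, 15909 and 16029 FPKM and then at 0, 540 and 2871 FPKM, and was not called.

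Of the transcription factors, KRBOX1 (now KRABD1), which carries a KRAB domain, was called lower. It was at 5974, 9081 and 8067 FPKM at 5 µM and at 0 in all libraries at 10 µM. Its 5 µM values rest on at least 35 fragments. The zinc finger protein ZFP3 and the homeobox gene HOXD1 kept 9.76% and 21.8%, each with a 10 µM library at 0. HOXD1 overlaps HOXD-AS1 on the opposite strand, which averaged 1328, 15197 and 5552 FPKM at 0, 5 and 10 µM. FOXS1, a forkhead factor, was at 4304, 4529 and 4291 FPKM and then at 1086, 2749 and 4056 FPKM, so it kept 60.1% and was not called (limma adjusted p = 0.31).

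Of 9 genes of membranes, vesicles and the cytoskeleton, SBK2 and FXYD6 were called lower. SBK2, a kinase, was at 5229, 3144 and 3142 FPKM and then at 0 in every library, at least 7.08-fold lower. FXYD6, a regulator of the sodium pump, kept 34.3%. Less than 10% was left of the microtubule-associated protein MAP9 (2.72%), the potassium channel KCNJ4 (2.86%) and ART3, of the ADP-ribosyltransferase family (6.68%), none of which was called. MAP9 rests on at least 479 fragments at 5 µM and 9 at 10 µM. ART3 overlaps CXCL10, CXCL11 and NUP54, and NUP54 averaged 215717 FPKM in the control, where ART3 is listed at 0. The protease CTSF kept 22.4%, the membrane repair protein dysferlin (DYSF) 35.3%, the Rab activator DENND2C 39.6% and the vesicle protein RAB3C, whose groups overlapped, 44.05%.

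The 8 less characterised proteins spanned both ends. C6orf15, a gene of the major histocompatibility complex region with a CG-poor promoter printed above, was at 25078, 19522 and 31470 FPKM at 5 µM and at 9753, 13990 and 16998 FPKM at 10 µM. C9orf135 (now CFAP95), a protein of cilia, was at 12926, 23020 and 13012 FPKM and then at 8469, 13696 and 9840 FPKM. They kept 53.6% and 65.4% and were not called (limma adjusted p of 0.117 and 0.291), and the groups overlapped in C9orf135. LOC100507003 (now GFY), a Golgi protein, kept 28.1% and PRR23A kept 7.80%, and both were called lower. PRR23A lies opposite MRPS22, which averaged 331238 FPKM in the control, where PRR23A is listed at 0. LOC441495 and CENPVL1 carried the same values in every library, 4949, 3677 and 5715 FPKM at 5 µM and 276, 872 and 206 FPKM at 10 µM. They are near-identical copies 27.8 kb apart on the X chromosome and count as a single measurement, although both are among the 34. CXorf49B kept 2.63% and C2orf74 5.84%, with 0s at 10 µM and no call.

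Of the 9 noncoding RNAs, pseudogenes and names without a position, LOC731779 (now LINC01300) and FLJ36000 were called lower and kept 30.2% and 23.1%. LOC100128098 (now ST8SIA6-AS1) was at 44300, 38849 and 45723 FPKM at 5 µM and at 5240, 2211 and 0 FPKM at 10 µM, and was not called (limma adjusted p = 0.177). LOC201477 kept 5.74%, LOC572558 14.7% and LOC149086 16.6%, each with at least a single 0 at 10 µM. LOC201477 overlaps DLGAP1 on the opposite strand, which averaged 67, 3931 and 268 FPKM at 0, 5 and 10 µM, so reads of the pair may be mixed. LOC100506451 (now RASSF8-AS1) was at 9290, 10401 and 8034 FPKM and then at 8792, 4632 and 7164 FPKM. It kept 74.3%, the most of the 81 genes, and its groups overlapped. It overlaps RASSF8 on the opposite strand, which averaged 1030, 5287 and 3621 FPKM at 0, 5 and 10 µM. FLJ34208 kept 69.1% and LOC100130673 46.9%, also with overlapping groups. In all, 14 of the 81 genes overlap another symbol of the data, 11 of them on the opposite strand.

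The share left at 10 µM thus ranged widely within and between the groups of genes. Its median was 5.08% for the 12 testis-type genes and 5.14% for the 8 germ cell genes, and 8.11% for the 7 hormones and carriers. It was 18.6% for the 8 immune genes, 29.6% for the 9 genes of differentiated epithelia and 38.1% for the 3 metallothioneins. All 9 epithelial genes were above 0 in every 10 µM library, against 5 of 8 germ cell genes and 5 of 12 testis-type genes. The median number of fragments at 5 µM, summed over 3 libraries, was 110 for the epithelial genes, 275 for the germ cell genes and 116 for the testis-type genes. The groups were set by hand with the values known, and no test was made between them.

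**Figure D4:**
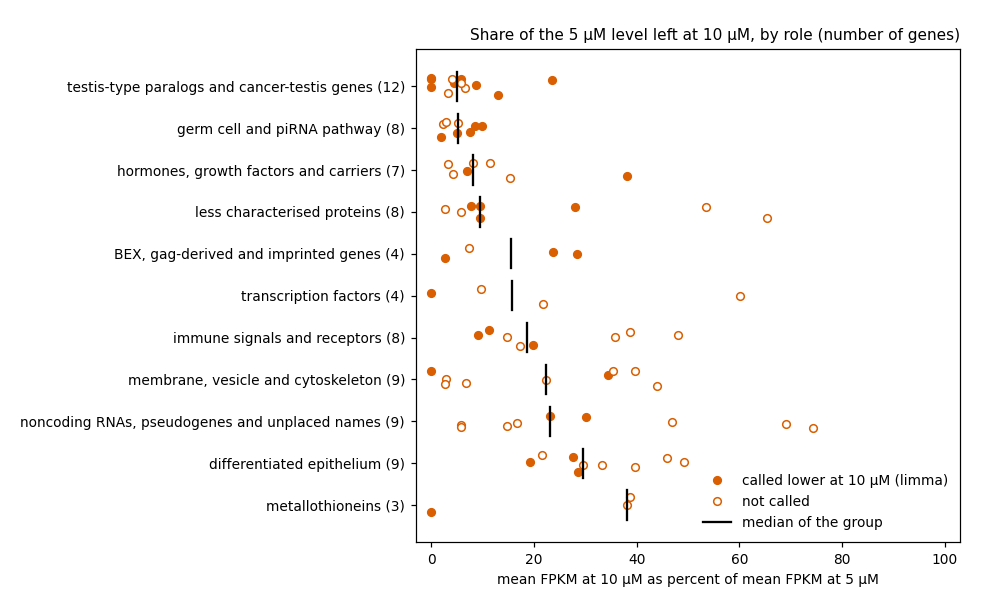
Mean FPKM at 10 µM as a percent of the mean at 5 µM (horizontal axis) for each of the 81 genes (points), by role (rows, with the number of genes), filled where limma called the gene lower and open where it did not; black bars are group medians. The medians run from 5.08% for testis-type genes to 38.1% for metallothioneins.

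Whole numbers of fragments could be read from the FPKM values of 60 of the 81 genes, because their values in the 6 treated libraries were whole multiples of a single step within 0.02. The step gives the smallest whole numbers possible, so the counts are minimums and the intervals the widest. The sum over the 5 µM libraries ran from 8 fragments for CCL24 to 1331 for STC2, with a median of 100, and the median at 10 µM was 10. The 95% interval of the ratio of 10 µM to 5 µM (Clopper-Pearson, with the library terms) lay below 1 in 57 of the 60 genes and below 0.5 in 42. For DAZL the ratio was 0.0184 with an interval from 0.00877 to 0.0340, and for STC2 it was 0.0712 with an interval from 0.0546 to 0.0914. For C6orf15 it was 0.545, between 0.419 and 0.703. The interval held 1 for CCL24, FOXS1 and FLJ34208. These intervals cover counting error only, not the spread between cultures. They were not computed for other symbols, so these counts have no background share. The 5 µM values also served to choose the genes, and the 60 include LOC441495 and CENPVL1 with the same fragments.

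**Figure D5:**
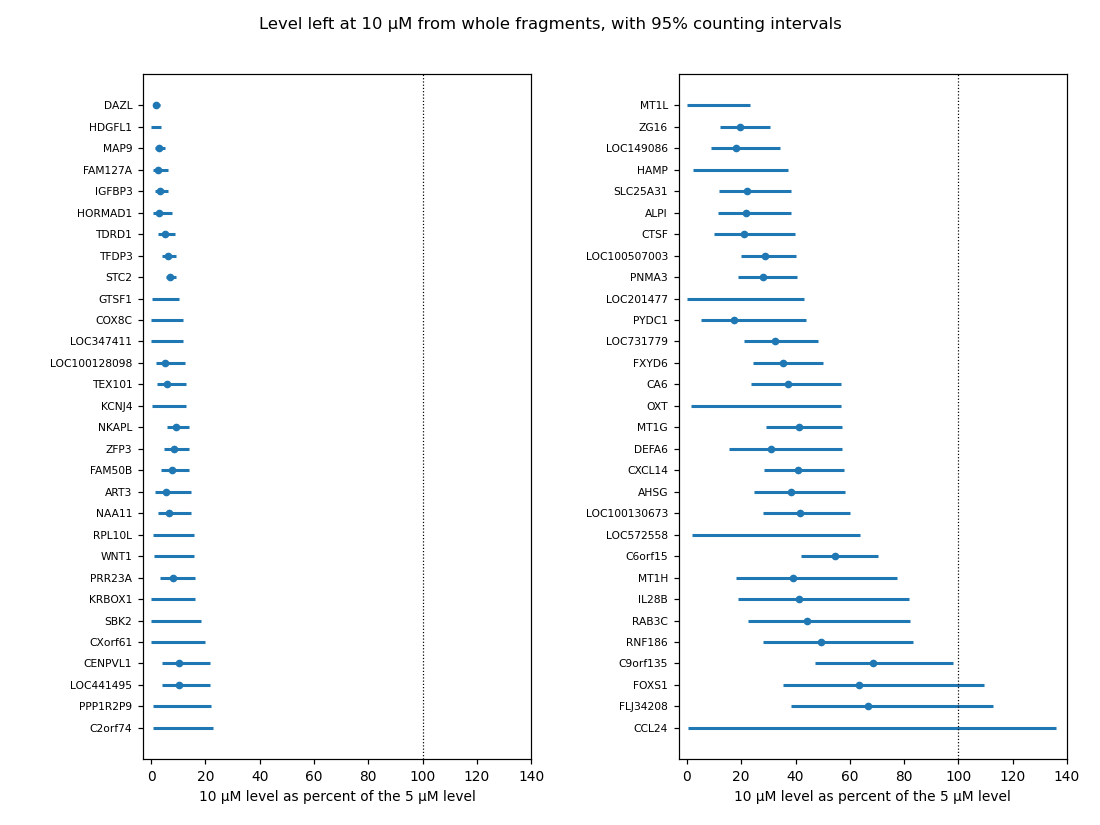
Level at 10 µM as a percent of the level at 5 µM (horizontal axis) from whole fragments for 60 of the 81 genes, with a bar for the 95% counting interval and a point for the ratio where more than 3 fragments were seen at 10 µM. The bars cross the dotted line of no difference only for CCL24, FOXS1 and FLJ34208.

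The 0s of the control have a depth of their own. Taking 3 fragments over the 3 control libraries as the most that a 0 allows, the control could hold up to 0.352% of the 5 µM level of STC2 and 0.591% of that of DAZL. Over the 60 genes this limit had a median of 4.69% and reached 58.6% for CCL24. The level at 10 µM, as a share of mean FPKM, was above the limit in 43 of the 60 genes. In the other 17, among them GTSF1, WNT1, KCNJ4, RPL10L and the 6 genes listed at 0 at 10 µM, a level at 10 µM above that of the control was not detectable at this depth. HAMP is among the 43, with 15.4% against a limit of 12.7%. It had only 3 fragments at 10 µM, as many as the limit allows the control, so its place there is not secure. Others of the 43 also rest on few fragments at 10 µM, such as HORMAD1, FAM127A and ART3 with 4, and PYDC1 and LOC100128098 with 5. The counting error of the 10 µM level had no part in this comparison, so the 43 are not all securely above the control.

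The limit of 3000 FPKM divides genes that differ little. Just inside it were HOXD1, SBK2, WNT1, GSTA1 and CTSF, whose lowest 5 µM libraries were at 3027, 3142, 3367, 3385 and 3619 FPKM. Just outside it were LOC729059, CELA3A, RHOH, PPP1R14A and CLEC2L, whose lowest 5 µM libraries were at 2999, 2990, 2988, 2960 and 2949 FPKM. With a limit of 1000 FPKM the rule found 224 genes, and with 10000 FPKM it found 32.

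Of the 81 genes, 71 are protein coding, 6 are long noncoding RNAs and 3 are pseudogenes. Among the 77 with a position on GRCh37, 11 lie on the X chromosome (14.3%), compared with 3.85% of the 19176 tested symbols with a position. The X-linked genes are TFDP3, TKTL1, CXorf61, LOC347411, PPP1R2P9, BEX2, FAM127A, PNMA3, CXorf49B, LOC441495 and CENPVL1. LOC441495 and CENPVL1, which carry the same values, are both counted. Apart from the metallothioneins and the CENPVL pair, only TEX101 and CD177 started within 100 kb of each other, 47.8 kb apart on chromosome 19.

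A RefSeq promoter window (250 bases before to 50 after the start) was at hand for 57 of the 71 protein-coding genes. The number of CG in it had a median of 18 with quartiles of 10 and 28, beside 23 with quartiles of 11 and 32 for 14063 tested protein-coding symbols. The range was wide, from 1 in IL28B to 60 in MAEL. With 15 or more CG, the share left at 10 µM had a median of 9.43% in 35 genes, of which 19 were called lower. With fewer, the median was 15.1% in 22 genes, of which 5 were called lower. The 35 genes and the 19 calls include both LOC441495 and CENPVL1, which count as a single measurement, and the median of 9.43% is their value. The limit of 15 was chosen with the values known. Over the 57 genes the number of CG and the share left had a Spearman coefficient of -0.22, as a description across genes.

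Exact motifs were searched on both strands of these windows. CACGTG, the E-box core of MYC and related factors, occurred in 12 of the 57 windows (21.1%) and in 9.24% of all 14063. Those 12 are BEX2, TFDP3, MT1H, DPEP3, FXYD6, TDRD1, MAP9, SLC25A31, POTEC, PNMA3, HOXD1 and CTSF. The TATA box core TATAAA occurred in 2 (3.51%), RPL10L and GSTA1, beside 8.25% of all. The cyclic AMP element TGACGTCA occurred in 1, PNMA3, beside 2.75% of all, and the palindromic NRF1 core in none, beside 1.85%. A match is not a site of binding, and none means only that these letters are not in this window.

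The wider pathways give the setting, beside 4.82% of all symbols called lower at 10 µM than at 5 µM, 0.129% called higher and a median log2 difference of -0.31. Of 25 piRNA pathway genes in the data, 8 were listed at 0 in every control library and 4 genes of the list are among the 81 (GTSF1, MAEL, TDRD1 and TDRD9). In that list 6 of 25 tested genes were called lower. Of 84 genes of meiosis and germ cell development, 36 were at 0 in every control library and 5 are among the 81 (DAZL, DPEP3, GTSF1, HORMAD1 and TEX101), and 14 of 75 tested were called lower. Of 74 single-copy cancer-testis genes, 39 were at 0 in every control library and 7 are among the 81, and 21 of 68 tested were called lower. The median log2 difference was -2.87, -2.31 and -3.79 in these 3 lists, which share genes. The counts and medians of each list include its genes among the 81, such as MAEL, TDRD1 and TDRD9, which were called lower. They are thus not separate from the results above, and the lists were not evaluated without those genes.

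Lists of other tissues also had lower medians than all symbols. The blood and lymphoid cell list had 69 genes at 0 in every control library, 21 of 132 tested genes called lower and a median log2 difference of -1.68. The pluripotency and placenta list had 17 at 0, 5 of 34 called lower and a median of -1.22. The neuronal list had 49 at 0, 12 of 115 called lower and a median of -1.03. The matrix list had 31 at 0, 16 of 112 called lower and a median of -0.91, and the muscle list 20 at 0, 8 of 64 called lower and a median of -0.85. No gene of these 5 lists is among the 81. The lists are not complete, since the blood and lymphoid cell list does not hold CTLA4, LTB, XCL1 or CD177 of the immune group above. Of the developmental transcription factors FOXS1 is among the 81, and 13 of 160 tested were called lower with a median of -1.34. KCNJ4 belongs to the ion channel list, where 15 of 164 were called lower with a median of -1.17. Of the interferon-inducible list IL28B is among the 81, and 2 of 79 (2.53%, below the share of all symbols) were called lower with a median of -0.71. No gene of any list was called higher.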

How the data were processed

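RNA-Seq profiles of 9 HT-29 cultures were used, grouped by the 5-Aza concentration and replicate number of the sample labels. The authors filtered reads with FASTX-Toolkit, aligned them with TopHat to hg19 and computed the deposited FPKM values per gene symbol with Cufflinks. The Cufflinks options and annotation are not given in the sources used here. A single gene of the set is counted but not reported here by name. No raw counts were used, so no count model was fitted.

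Values of repeated symbols were summed. The 81 genes, their role groups and the gene lists were chosen with earlier results of these data known. Genes named with full values were mainly those highest at 5 µM, those that kept most or least at 10 µM, those with the smallest adjusted p, members of the lists and genes near the limit. Differences were tested on log2(FPKM + 1), in the 6 libraries of a contrast, with limma 3.58.1 (eBayes with trend) under R 4.3.3, for symbols reaching 10 FPKM in either group. Calls needed an adjusted p (Benjamini-Hochberg, over all symbols) up to 0.05 and a log2 difference above 1 or below -1. An exact permutation test of 3 against 3 cannot go below 0.1. With 3 values at 0, the spread of a gene comes from the other group alone. The scripts were tested on simulated data.

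A term for each library was estimated from the lowest values. At 12 microRNA genes of 110 nucleotides, 46 of 46 deposited FPKM values were whole multiples of 1 step per library within 0.01. That step gave the library's term. The fragments per library were then estimated from FPKM, this term and exonic length, with a constant from 1259 genes. Of these genes, 66.6% lay within 1.5 times the constant. The relative term was smallest in control replicate 1 (1, against 1.27 in 10 µM replicate 1). Positions are from the GENCODE annotation on GRCh37 and promoters from RefSeq. Tables were made with pandas 2.3.3 and scipy 1.17.1.

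Alternatives were pseudocounts of 0.1 and 1000, other filters, median-of-ratios scaling, all 9 samples in one fit, the replicate block, limma's treat, the largest entry of repeated symbols, other limits at 5 µM, and each library left out. The sample labels do not say whether the replicate numbers pair the cultures.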

Additional observations from a re-analysis of the deposited data

How the results depend on the processing

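All 81 genes were lower at 10 µM than at 5 µM in every setting tried, and no difference of theirs changed sign. Their number called lower, 34 as reported, was 60 with a pseudocount of 1000, 18 with limma's treat against a fold change of 2, and between 14 and 50 with a library left out (lowest without 5 µM replicate 3, highest without 10 µM replicate 2). Over all symbols, 969 were called lower at 10 µM than at 5 µM as reported, 374 with treat, and 176 to 1873 with a library left out. Those called higher were 26 as reported, 17 without the filter on low values, 55 with median-of-ratios scaling, 7 with treat, and 12 to 64 with a library left out. Against the control, 771 symbols were higher at 10 µM as reported, 488 without the filter, 1174 with all 9 samples in one fit, 145 with treat and 337 to 819 with a library left out. Those lower were 644 as reported, 271 without the filter, 284 with median-of-ratios scaling, 16 with treat and 165 to 1500 with a library left out. At 5 µM against 0 µM, 2818 symbols were called higher as reported and 1463 with treat. The rule found 224 genes with a minimum of 1000 FPKM, 32 with 10000 FPKM, and 89 to 133 with a library left out (133 without control replicate 3, the deepest control library). The 6 genes listed at 0 in every 10 µM library were 3 among genes with at least 10 estimated fragments in each 5 µM library, and 7 to 14 with a 10 µM library left out. The median share left over that deeper set, added after seeing the data, was 9.85%. The cause of these changes was not tested.

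With the replicate number as a block, 21 of the 81 genes were called lower at 10 µM than at 5 µM, and 407 symbols lower and 11 higher in all. Over 15278 symbols, deviations of same-numbered samples had correlations between -0.07 and 0.09 in 9 pairs, and of differently numbered samples between -0.16 and 0.10 in 18 pairs. Whether cultures of the same number were handled together is not stated, and these correlations cannot show it for a part of the genes.

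Depth limits what the 0s show: 12 of the 60 genes with whole fragments had under 10 in a 5 µM library, and 18 had at most 3 over all 10 µM libraries.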
